A study of Ovis aries with 2 samples.

Results

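ARID5B is a gene on sheep chromosome 25 whose body held 4 PPARG intervals, of 2288 found by chromatin immunoprecipitation and sequencing (ChIP-seq) in the day 14 conceptus. The members are all PPARG intervals whose gene assignment in the authors' table names ARID5B. The gene was selected on its number of intervals and their heights in this library, so number, heights and positions are a description and were not tested. The data came from 1 PPARG ChIP library and 1 input library of chromatin that was not precipitated. Per the labels, both were made from pooled material of 4 conceptuses taken from columbia/ramboulette crossbred ewes on day 14 of pregnancy, with no treatment. The antibody was a rabbit polyclonal against PPARG, so other proteins that it may bind are not distinguished. Neither library was replicated, the read totals are unknown, and the values below carry no biological error. A conceptus is the embryo with its extraembryonic membranes, and the library does not say in which of its cells the protein lay on the DNA.

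PPARG, or peroxisome proliferator-activated receptor gamma, is a nuclear receptor that binds DNA together with a retinoid X receptor and switches on genes of lipid uptake and storage. ARID5B carries an AT-rich interaction domain (ARID), a fold that contacts DNA, and acts as a transcriptional coregulator. In mammalian cells it pairs with the histone demethylase PHF2, which removes a repressive methyl mark from histone H3. Mice without Arid5b are lean and have less fat tissue, and in mouse cartilage the protein acts with SOX9.

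The 4 ARID5B intervals differed widely in height, which is the top value of a fragment-density track within an interval, in the authors' own units. Positions are on build Oar_v3.1, as the authors' table gives them. The first interval, from 17801981 to 17802920, was 939 bp long with a height of 28 and a summit 6520 bp inside the gene. The second, from 17882193 to 17883539, was the strongest and reached 63 at 87192 bp from the gene start, over 1346 bp. The third, from 17969379 to 17970021, reached 14 at 173912 bp and was the shortest at 642 bp. The fourth, from 17976389 to 17977622, reached 12 at 180912 bp over 1233 bp. Signal was thus highest in the middle of the occupied stretch and lowest at its far end. The highest interval stood 2.25 times above the next and 5.25 times above the lowest. In the input library no interval overlapped any of them, and the whole of chromosome 25 had 0 of the 5 input intervals. An input signal below the authors' threshold is not listed, so the input level at these sites is unknown.

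All summits gave the same gene start, at position 17795912, and lay at increasing positions downstream of it, so the authors' annotation placed the gene on the forward strand. Every interval was marked as inside the gene, was assigned to ARID5B alone and held neither a CpG island nor a promoter. None lay at the gene start, and the nearest was 6.52 kb into the gene. Among all PPARG intervals, 60.9% also had neither mark, 32.7% held a promoter and 24.8% held a CpG island. Whether the ARID5B sites fall in exons or introns is not given in the table, and no annotation of this build was used here.

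**Figure D1:**
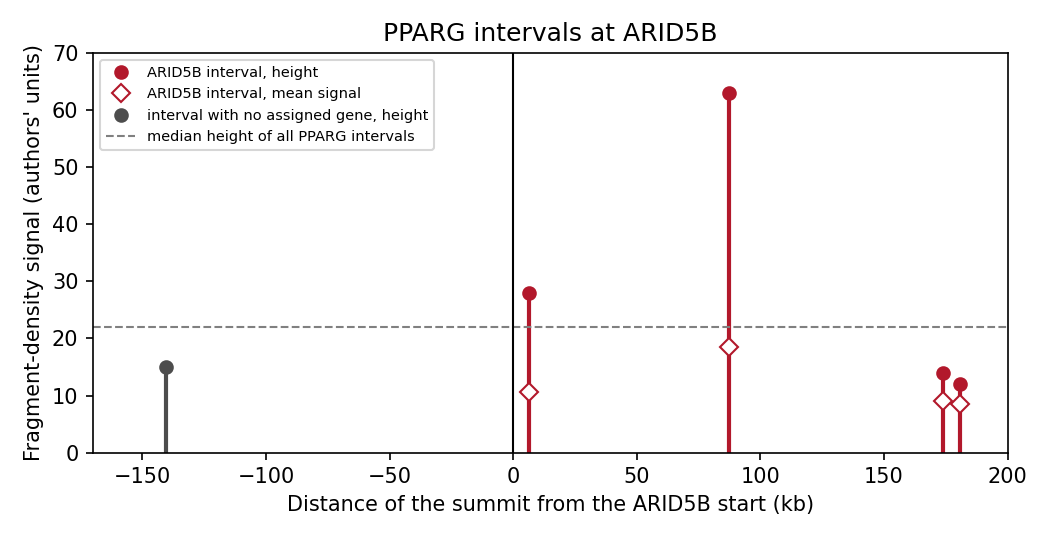
PPARG signal along ARID5B, as height (filled circles) and mean signal (open diamonds) of each interval in the authors' units, against the distance of its summit from the gene start in kb. The dashed line is the median height of all PPARG intervals, 22; ARID5B heights of 28 and 63 lie above it and those of 14 and 12 below, and the grey interval 140.6 kb before the start has no assigned gene.

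By height, the second interval ranked 82 among all 2288, above 96.3% of them. The first was above 67.8%, the third above 7.65% and the fourth above 1.09%. The ARID5B sites therefore reached from the upper end of the list almost to its floor, since the lowest height listed was 10. The median over the 4 was 21, against 22 for all PPARG intervals.

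The mean signal over each interval gave the same order with smaller contrasts. It was 10.6 in the first interval, 18.5 in the second, 9.05 in the third and 8.58 in the fourth, against a median of 10.4 over all PPARG intervals. Summed over the bins of each interval, the signal was 318, 775, 181 and 326 from the first to the fourth. The second interval thus carried 48.4% of the 1600 signal units at the gene. On this measure the fourth interval, the lowest in height, passed the first, over a longer stretch.

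The strongest and the weakest interval also differed in the ratio of height to mean signal, which is not independent of height. The second interval was peaked, with a height 3.41 times its mean signal, which ranked 37 among all intervals, where the median was 2.14. The fourth was flat, with a height 1.40 times its mean, rank 2271 of 2288. Because no interval had a mean signal below 6.26, a height of 12 left little room for a high ratio. This rank therefore adds no separate difference to the low height. The fourth interval was also long for its height. Of the 87 intervals no higher than 12, whose median length was 662 bp, 1 was as long as 1233 bp, and that was the ARID5B interval itself. The first interval had a ratio of 2.64 and the third one of 1.55. The summit sat near the middle of the first interval, at 48.0% of its length from its start. It was displaced to 67.7% in the second and 69.3% in the third and lay at 35.3% in the fourth, where the quartiles over all intervals were 42.4% and 54.9%.

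A closer reference is given by the 502 PPARG intervals (21.9%) that lay inside 1 gene and held neither a CpG island nor a promoter, to which all ARID5B sites belong. Heights in this class had a median of 21, with quartiles of 16 and 28 and a maximum of 80. The second ARID5B interval ranked 13 in it by height and 5 by the ratio of height to mean signal. Those above it were RAB20 with 77, THADA with 76, EFNA1 with 75, ARMC2 with 75, CPXM1 with 70, KIAA0494 with 67, ARID3B of the ARID family with 66, MCF2L2 with 65, VHNF1 with 64, and genes known by LOC numbers with 80, 76 and 67. By length the second ARID5B interval ranked 40 and the fourth ranked 66 in the class.

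The sites also lay at widely differing distances from the gene start, though not over the full range of the class. In the class the median distance was 34473 bp, and 37 intervals (7.37%) lay as near the start as the first ARID5B interval or nearer. Farther out than the fourth were 46 (9.16%). In the class as a whole, the 99 intervals beyond 100 kb had a median height of 22 and the other intervals a median of 21. The low heights at the far end of ARID5B thus had no counterpart in the class medians, which do not describe single sites. Some single intervals beyond 100 kb were as low, such as UNC13B with 12 and KIF13A with 14. Others there were tall, such as THADA with 76.

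**Figure D2:**
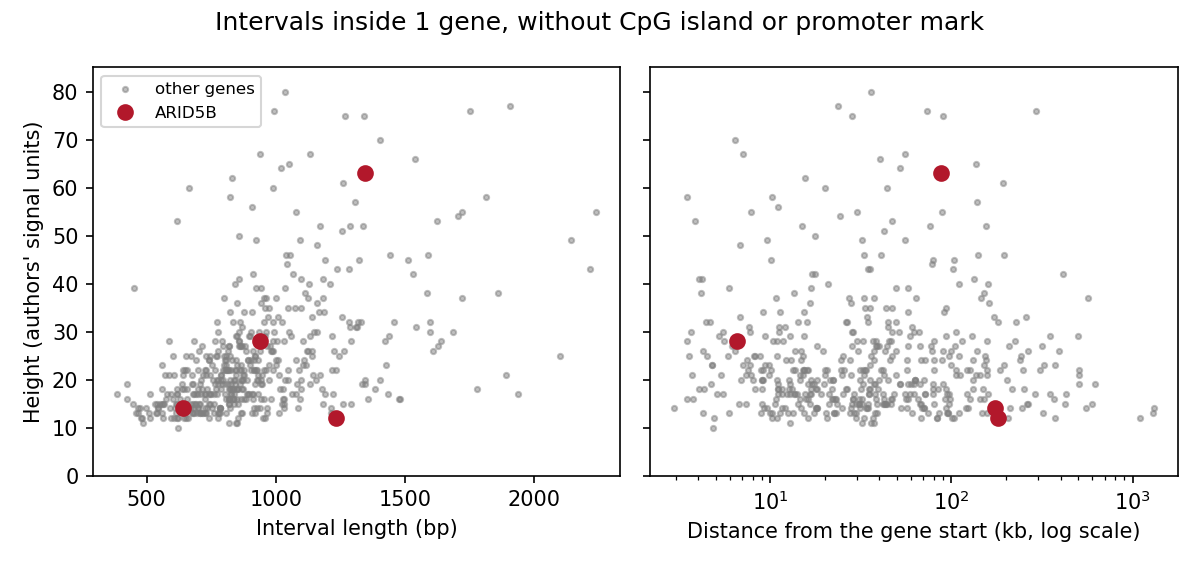
Height of the 502 PPARG intervals inside 1 gene and without a CpG island or promoter, in the authors' signal units, against interval length in bp (left) and distance from the gene start in kb on a log axis (right). Red points are the ARID5B intervals; the tallest, at 63, ranks 13 of 502, and the lowest, at 12, is long for its height.

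Spacing was uneven. The first and second summits were 80672 bp apart, the second and the third 86720 bp, and the third and the fourth 7000 bp, so the far end of the stretch held a pair of weak sites. Of 2261 neighbouring pairs on the same chromosome in the whole list, 6.15% were as close as that pair or closer, and 25.2% were as close as the first pair. The median distance between neighbours was 356 kb over all chromosomes and 719 kb on chromosome 25. From the first to the last summit the ARID5B sites spanned 174 kb, of which the intervals covered 4160 bp. Taking each PPARG summit in turn, 101 of 2288 (4.41%) were followed within that distance by enough others to make 4 or more, and the densest such window held 8.

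The nearest other PPARG interval was closer before the gene than after it. The next PPARG interval before it lay 140.6 kb ahead of the gene start, from 17655020 to 17655684, with a height of 15 and no assigned gene. Its summit was 147 kb from the first ARID5B summit, less than the median distance between neighbours. Beyond it on that side, the next interval, at RHOBTB1, was 1266 kb from the first ARID5B summit. The next one after the fourth site was 1145 kb away, from 19121884 to 19122649, with a height of 31 and again no gene. Chromosome 25 held 39 PPARG intervals in all, or 0.894 per Mb up to the last, and 10.3% of them were at ARID5B. The tallest ARID5B site ranked 3 among the 39. Of 26 gene names with an interval there, leaving out tRNA and LOC names, 4 had more than 1, and none other than ARID5B had more than 2.

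Genes around ARID5B had intervals about as often as genes in general. Of 12 genes listed as its chromosomal neighbours, all of which flank it in the RefSeq gene order of assembly ARS-UI_Ramb_v3.0, 1 had one (8.33%), against 9.28% of 16388 named protein-coding genes. This was RHOBTB1, with a height of 24 at 57087 bp into the gene, from 16535742 to 16536752. The adjoining genes CABCOCO1 and RTKN2 had none. JMJD1C, a gene of the histone demethylase family on the same side as RTKN2, and EGR2, a zinc finger transcription factor gene, had none assigned either. No RefSeq coordinate was used, because that assembly is not the one of the intervals.

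Holding 4 intervals placed ARID5B among a small group of genes. Of 1660 gene names other than tRNA and LOC names, 1449 had 1 interval, 174 had 2, 27 had 3, 6 had 4 and 4 had 5. Those with 5 were ABCA4, a retinoid and lipid transporter gene, ACOT11, an acyl-CoA thioesterase gene, FADS2, a fatty acid desaturase gene, and VMP1, which acts in autophagy. Those with 4 besides ARID5B were FTO, which encodes an RNA demethylase, NOS2, the inducible nitric oxide synthase gene, ERBB2, a growth factor receptor gene, KRT8, an epithelial keratin gene, and C3H2orf18. In ARID5B, FTO, ABCA4 and ACOT11 every interval lay inside the gene without a CpG island or promoter. In the remaining 6 genes at least 1 interval was upstream or downstream of the gene.

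Within this group ARID5B, which was selected partly on its heights, had the widest range of heights. Its ratio of highest to lowest, 5.25, was followed by 3.25 at VMP1, 3.06 at ABCA4 and 2.87 at ACOT11, and was lowest, at 1.28, at C3H2orf18. Its highest interval, 63, was followed by 52 at ABCA4 and 44 at ERBB2. Its lowest, 12, was equalled at FADS2, VMP1 and KRT8. The ratio at ARID5B rests on that low interval, which is near the list's floor of 10. From its highest to its second height the ratio was 2.25.

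Ranked by the distance from first to last summit on a log10 scale, the gene with 4 intervals most like ARID5B was FTO. The FTO intervals on chromosome 14 spanned 295 kb, a log10 difference of 0.23 from ARID5B. Their heights were 15 at 30715 bp from the gene start, 17 at 289771 bp, 22 at 308555 bp and 23 at 325675 bp. At FTO the sites thus stayed within a narrow band of heights and the far group was the higher, whereas at ARID5B the far pair was the lower. The other genes with 4 intervals were more compact, with spans of 32.3 kb at NOS2, 27.8 kb at ERBB2, 23.6 kb at KRT8 and 14.4 kb at C3H2orf18. Likeness here covers 1 library and says nothing of shared control.

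A long gene offers more room for intervals, and no gene lengths of this build were used. As a partial reference, 87 gene names had an interval inside the gene more than 100 kb from its start. Of these, 69 (79.3%) had 1 interval inside the gene, 12 had 2, and EFNA5, PRKCE and VPS13D had 3. ARID5B and FTO had 4 and ACOT11 had 5. Most of these genes thus held a single site in the gene body.

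**Figure D3:**
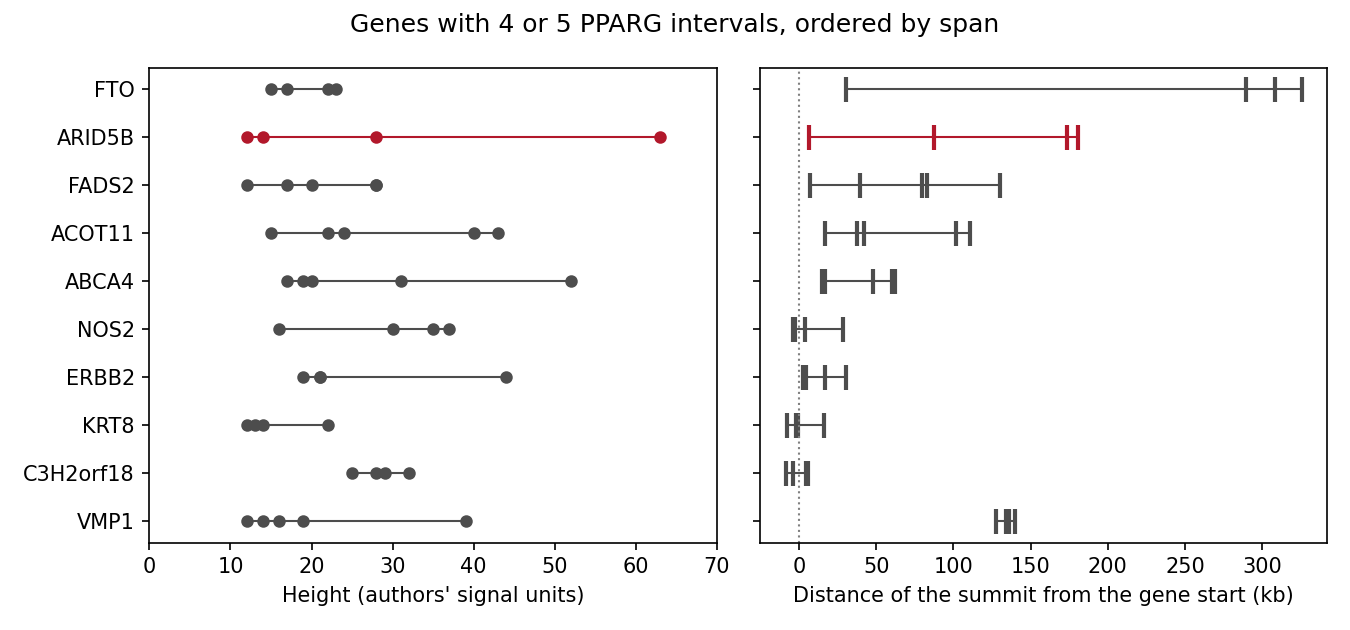
The 10 genes with 4 or 5 PPARG intervals, leaving out tRNA and LOC names, ordered by the distance from first to last summit. Each point (left) is an interval's height in the authors' signal units and each tick (right) its summit's distance from the gene start in kb. ARID5B, in red, ranges from 12 to 63, the widest range of heights, and its span of 174 kb is exceeded by that of FTO. Its height of 12 lies near the floor of the list, 10.

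Of the relatives of ARID5B, ARID3B held an interval about as tall as its strongest site. Among 14 genes with an ARID domain, 3 had at least 1 (21.4%), namely ARID5B, ARID3B and ARID3A, against the 9.28% of all genes. At or above the median height the same 3 had one, where the share of all genes was 5.67%. In the gene or within 5 kb of its start 2 had one, ARID5B and ARID3B, against 6.54% of all genes. ARID5B was chosen for its intervals, so its own entry in this count says nothing about the family. ARID3B, a DNA-binding factor gene, had 1 interval of 66 on chromosome 18 from 32981179 to 32982718, inside the gene at 40425 bp from its start and with no CpG island or promoter. It ranked 69 in height among all PPARG intervals, close to the tallest ARID5B site, and like that site it was long, at 1539 bp. ARID3A had 23 on chromosome 5 from 40892380 to 40894408, downstream of the gene in an interval also assigned to WDR18 that held a CpG island and a promoter. The other 11 had none assigned, among them ARID5A, the closest relative of ARID5B, the chromatin remodelling subunit genes ARID1A, ARID1B and ARID2, and JARID2, a cofactor of Polycomb repression.

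Of 17 other histone demethylase genes named in the RefSeq or the authors' table, 2 had an interval (11.8%), close to the 9.28% of all genes. KDM1A, a demethylase of histone H3 that acts in corepressor complexes, had 58 on chromosome 2 from 242721068 to 242721889, at 3463 bp into the gene. KDM6B, which removes the Polycomb mark, was 1 of 4 genes assigned to an interval of 32 on chromosome 11 from 27104369 to 27105904, downstream of KDM6B and marked with a CpG island and with 3 promoters. PHF2, the partner of ARID5B, and PHF8 had none. KDM4D was not found under that name.

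Among 12 regulators of fat and cartilage cells, 1 had an interval (8.33%), close to the 9.28% of all genes. CEBPB, an early transcription factor of fat cell formation, had 51 at 2361 bp upstream of its start, on chromosome 13 from 77752718 to 77753896, with a promoter mark. PPARG, CEBPA, EBF1 and SOX9, with which ARID5B acts in mouse cartilage, had none assigned. Of 9 trophectoderm marker genes found by name, 4 had an interval, at KRT8, KRT18, KRT19 and GATA3, with heights from 12 to 29. This was 44.4%, against 9.28% of all genes, and those of KRT18 were all shared with KRT8. The list was chosen with earlier results of these data known, so its shares are a description and not a test of enrichment. The intervals of KRT19 and GATA3 lay downstream of those genes. CDX2, GATA2, TFAP2A, TFAP2C and ELF5 had none assigned, and IFNT was not found under that name. At or above the median height 3 of the 9 had an interval, against 5.67% of all genes. In the gene or within 5 kb of its start 3 had one, against 6.54%. An interval is not a measure of expression, so these markers do not show which cells of the conceptus gave the ARID5B signal.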

How the data were processed

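Per the submitters' processing notes, BWA was used and the genome build was Oar_v3.1. Which program called the intervals, at what threshold and with which annotation, and which BWA version was run, are not given in the sources used. The table deposited by the authors lists intervals per library with the highest and mean signal of a density track, in units and with a scaling that are not stated. Multiplied by its bins, the mean signal came out whole, within 0.01, in 100% of PPARG intervals. Depth is unknown for both libraries. Counting errors are therefore not given, and signals were compared only within the PPARG list. Length equals end minus start, and whether starts count from 0 or 1 is not stated. The interval, CpG island, promoter and gene counts are also the authors' own.

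Python 3.11.15 with pandas 2.3.3 was used, and the counts were tested on simulated data. Of 1660 names other than tRNA and LOC names, 1521 (91.6%) matched a symbol or synonym among 16388 named protein-coding genes in the RefSeq table of ARS-UI_Ramb_v3.0, which served for names and gene order only. Listed genes with an interval, the nearest interval on each side, names with as many intervals as ARID5B, and genes with as many on 1 chromosome ranked by log10 span are named. The class of intervals inside 1 gene, the shape ratios and the 100 kb reference were chosen after the values were seen. ARID5B and the gene lists were chosen with earlier results of these data known. With 1 library a group, no test was made. Alternatives covered height, overlap with input, position, the signal measure, leaving out each interval and the names counted.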

Additional observations from a re-analysis of the deposited data

How the results depend on the processing

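The number of ARID5B intervals remained 4 when counting those inside the gene, those assigned to ARID5B alone, and those without input overlap of 1 bp or of 50% of their length. These settings could not change it, since all 4 were inside the gene and assigned to it alone. The gene's chromosome also held no input interval. At or above the median height of all PPARG intervals the number was 2. At that height 74 gene names had as many intervals as ARID5B, against 10 in the full list, so its place among genes with many sites rests on the pair of weak sites. With tRNA and LOC names included 15 names had as many, and 10 did so within 500 kb on 1 chromosome. The median height of 21 became 14 without the interval of 28 or that of 63, and 28 without that of 14 or that of 12. The median mean signal was 9.83. The median spacing of 80672 bp became 79273 bp from the end of one interval to the start of the next. Of 14 ARID and 17 other demethylase genes, 5 had an interval, 5 had one at or above the median height, and 3 had one in the gene or within 5 kb of its start, where the shares of all genes were 9.28%, 5.67% and 6.54%. ARID5B, chosen for its intervals, is 1 of them in each setting. In that last setting ARID3A and KDM6B, whose intervals lay downstream, no longer counted. No paired analysis was possible because each group had 1 library. Without read totals or replicate libraries, heights near the floor of the list, such as 12 and 14, cannot be told from weak background.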
